A study of Mus musculus with 21 samples.

Results

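C-type lectin receptors are surface proteins with a carbohydrate-recognition-like fold, through which dendritic cells take up glycosylated, microbial or dead-cell material and deliver it to antigen processing. Some carry or recruit activating motifs and signal through the kinase Syk and the adaptor Card9, others carry an inhibitory motif that recruits phosphatases, and a further group acts mainly as endocytic receptors. The receptors are also widely used to tell the 2 conventional dendritic cell (cDC) lineages apart, and antibodies to several of them are used to direct antigen to 1 lineage. The 10 receptors described here, out of 37734 genes in the files, were taken by gene name, and all 10 passed the filter on low values. They were Clec9a, Ly75, Clec12a and Cd207, of which the first 2 and the last are used as cDC1 receptors, the inhibitory receptors Clec4a4 and Clec4a2, the activating receptors Clec4n and Clec7a, and the lectins Clec10a and Cd209a.

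The libraries came from cDCs of untreated C57BL/6 mice aged 6 to 8 weeks, with no genetic change named in the labels. CD11c+ cells were enriched from digested spleen or thymus with magnetic beads and sorted by flow cytometry into cDC1 (CD24+ CD11b-) and cDC2 (CD24- CD11b+), and each subset into immature (CCR7- Esam-) and mature (CCR7+ Esam+) cells. Each subset gave 3 groups, namely immature cells of the spleen, called splenic here, and immature and mature cells of the thymus. Mature splenic cells were not analysed here, so maturation was compared in the thymus and tissue in immature cells. Organs of several mice were pooled, and the labels describe the exclusion of F4/80, Ly6g, Ly6c and DX5 for the cDC1 gate and not for the cDC2 gate.

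Reads counted in genes, as recovered from the deposited values, numbered between 14266867 and 40119669 in the 21 libraries. Splenic cDC1 replicates 4 and 5, which share the number that opens their label, read here as a pool number although the labels do not say what it is, and also index and lane, differed far less than the other pairs of their group (chi-square per degree of freedom 2.53 against 26.9 to 190.4) and were averaged as 1 sample, listed as replicate 4, which left 20 samples, 4 in each of the splenic and immature thymic cDC1 groups and 3 in each other group. Nothing in the labels says that the samples came from separate mice, and splenic cDC1 replicates 1 and 4 carry the same such number, as do immature thymic cDC1 replicates 3 and 4, which also share index and lane but differed more than other pairs of that group (chi-square per degree of freedom 100.5 against 24.6 to 93.6) and were kept apart, so the p-values measure the spread between these samples, which may be technical. Ccr7, a sorting marker, ranged from 261 to 5433 in the immature samples and from 91722 to 129531 in the mature samples, and Esam from 1.07 to 86.9 and from 896 to 1323. Xcr1, a defining cDC1 marker, was higher and Sirpa, a defining cDC2 marker, lower in every cDC1 sample than in every cDC2 sample of the same tissue and stage. Cd24a, which encodes the CD24 of the gates, was also higher in every such cDC1 sample, but by less than 2-fold in mature cells. Its means in cDC1 and cDC2 were 9884 and 446 in spleen, 12152 and 2108 in immature thymus and 3257 and 2137 in mature thymus. Itgam, which encodes the CD11b of the cDC2 gate, was listed at 0 in all 3 mature cDC1 samples and at 25.3, 32.7 and 3.14 in mature cDC2. Mature thymic cDC2 replicate 3 stood apart from its group. Some results are also given without it, where this is said, and all other values of mature thymic cDC2 include it. In bulk samples fewer cells of a type and less RNA per cell cannot be told apart.

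Values are the normalized read counts as deposited, the read count of a gene already divided by 1 size factor per library, and ± after a mean is the SD over samples. Levels are compared between genes only after division by the exon length of the gene. Differences are log2 fold changes ± SE of log2(value + 1) from limma, with p adjusted over the 14970 genes tested. A gene was called, and is said to have risen or fallen, at an adjusted p below 0.1 and more than 2-fold.

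Of the 10 genes, 7 lie on chromosome 6, and on GRCm38 they fall into 3 stretches. Clec4a4 (chr6:122990367-123024105), Clec4a2 (chr6:123106428-123143999) and Clec4n (chr6:123229843-123247021) lie in this order on the plus strand, with Clec4b1 and Clec4b2 among them. Clec12a (chr6:129342691-129365303, plus), Clec9a (chr6:129408862-129424763, plus) and Clec7a (chr6:129461591-129472779, minus) lie further along, with Clec12b between Clec12a and Clec9a, and Clec1a between Clec9a and Clec7a. Cd207 (chr6:83671215-83677857, minus) lies apart from both stretches. Ly75 is on chromosome 2 (chr2:60292103-60383303, minus), Cd209a on chromosome 8 (chr8:3743397-3748984, minus) and Clec10a on chromosome 11 (chr11:70156197-70170834, plus). Some reads could belong to a neighbour or a near copy. Shared sequence was counted in windows of 100 identical bases that start at every base and so overlap each other. Transcripts of Clec4a4 and Clec4a2 share 64 such windows, 9.45% of those in Clec4a4, and Clec10a and Mgl2 share 91. Clec9a and Clec1b, whose exons overlap by 184 bases on 1 strand, share 86. An antisense gene, Gm13571, overlaps part of a Ly75 exon, and the strand setting of the counting is not given in the sources used here. Clec7a is typed as a polymorphic pseudogene in GENCODE M21, the annotation used here.

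Clec9a, a receptor for actin exposed by dead cells, was highest in splenic cDC1, at 14642, 16581, 10595 and 15113 in the 4 samples. Immature thymic cDC1 held 7269, 7125, 6139 and 7334, and mature thymic cDC1 1268, 1429.8 and 925. In cDC2 it was at 827, 996 and 924 in spleen, 225, 423 and 405 in immature and 26.9, 39.7 and 41.6 in mature thymic cells. Within each subset the 3 groups did not overlap, and the order was spleen, immature thymus, mature thymus. Mature cDC1 and splenic cDC2 were neighbours in the order of the 6 groups that overlapped and did not pass the test (log2 difference 0.38, adjusted p = 0.169).

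Ly75, an endocytic receptor of the mannose receptor family also known as DEC-205, had its highest values in mature cells of both subsets. Mature cDC1 held 27587, 22798 and 28864 and mature cDC2 13987, 13814 and 17143. Immature cells were lower, with 4562, 4446, 3259.7 and 4298 in thymic cDC1, 3792, 3811, 2603 and 3361 in splenic cDC1, 905, 1302 and 936 in thymic cDC2 and 159, 221 and 186 in splenic cDC2. Splenic and immature thymic cDC1 overlapped (adjusted p = 0.324), and no other neighbours in this order did.

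Cd207, or langerin, the lectin that forms the Birbeck granules of Langerhans cells, was a transcript of immature thymic cDC1. Those 4 samples held 4764, 5368, 5850.0 and 5023, against 934, 767, 770.2 and 812 in splenic cDC1 and 55.3, 8.67 and 96.7 in mature thymic cDC1. Immature thymic cDC2 held 48.0, 53.6 and 60.7, splenic cDC2 5.49, 6.87 and 6.52 and mature thymic cDC2 3.07, 14.6 and 1.57. Immature thymic cDC2 and mature thymic cDC1 overlapped, as did mature thymic and splenic cDC2, and neither pair passed the test (adjusted p = 0.474 and 0.618). Of the other markers listed for Langerhans cells, Epcam and Cdh1 were highest in immature thymic cDC2 (3516 ± 174 and 10048 ± 759), where Cd207 was low, and stood at 581 ± 66.2 and 158 ± 37.1 in immature thymic cDC1.

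Clec12a, an inhibitory receptor that senses uric acid crystals, was at 6059, 5511, 3370.0 and 5215 in splenic, 5117, 5032, 5922 and 5474 in immature thymic and 2688, 2579 and 2813 in mature thymic cDC1. In cDC2 the values were 2478, 3507 and 2374, 1689, 1975 and 1855 and 359, 359.8 and 361 in the same order. Splenic and immature thymic cDC1 overlapped, and mature thymic cDC2 lay below every other sample.

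The 2 inhibitory receptors of the Clec4 cluster were both transcripts of cDC2, with different relations to tissue. Clec4a4, or DCIR2, the receptor used to direct antigen to splenic cDC2, was at 1704, 2863 and 1336 in splenic cDC2 and 25.6, 119 and 76.3 in immature thymic cDC2. It was at 97.8, 66.1, 75.7 and 79.4 in splenic and 9.29, 14.2, 3.12 and 6.06 in immature thymic cDC1, and mature cells held 2.30, 7.66 and 0 in cDC2 and 0, 0 and 1.60 in cDC1. Splenic cDC2 stood above all other groups, and splenic cDC1 and immature thymic cDC2 overlapped (adjusted p = 0.776).

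Clec4a2, or DCIR, was instead shared by splenic and immature thymic cDC2, at 1558, 2092 and 1196 and 1199, 1211 and 931. Mature thymic cDC2 held 88.3, 135 and 42.4, in the range of the 69.0, 114, 65.6 and 104 of splenic cDC1. Immature thymic cDC1 held 29.6, 14.99, 26.5 and 40.4, and the 3 mature cDC1 samples together 1 read.

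Clec4n, or Dectin-2, a receptor for fungal mannans that signals through the Fc receptor gamma chain, was highest in immature thymic cDC2. Values there were 1839, 2053 and 2229, against 366, 337 and 318 in splenic and 382, 425 and 116 in mature thymic cDC2. All cDC1 samples were low, between 0 and 50.3.

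Clec7a, or Dectin-1, the receptor for fungal beta-glucan that signals through Syk and Card9, had the highest mean per kb of exon of the 10 in each cDC2 group. Immature thymic cDC2 held 33245, 38263 and 34792 and splenic cDC2 21588, 36252 and 21604, which overlapped, and mature thymic cDC2 held 4609, 9261 and 7118. In cDC1 it was at 2248, 2472, 1882 and 2246 in splenic, 1686, 1382, 1985 and 1493 in immature thymic and 2478, 2827 and 2760.0 in mature thymic samples, so that mature cDC1 lay above both immature groups while mature cDC2 lay below them. The difference between mature and splenic cDC1 did not pass the test (adjusted p = 0.247).

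Clec10a, a galactose-type lectin, and Cd209a, a mouse relative of human DC-SIGN, were transcripts of immature cDC2. Clec10a was at 3859, 4111 and 3558 in immature thymic and 981, 521 and 1015 in splenic cDC2. It was between 3.20 and 88.3 in all cDC1 samples and at 78.3, 75.2 and 13.3 in mature cDC2. Cd209a was at 17259, 19971 and 18644 in immature thymic, 9985, 10812 and 9695 in splenic and 187, 215 and 23.5 in mature thymic cDC2. Of the cDC1 groups, splenic samples held 203, 287, 339 and 327, immature thymic 98.8, 153, 53.1 and 69.7 and mature thymic 0, 1.73 and 6.40.

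**Figure D1:**
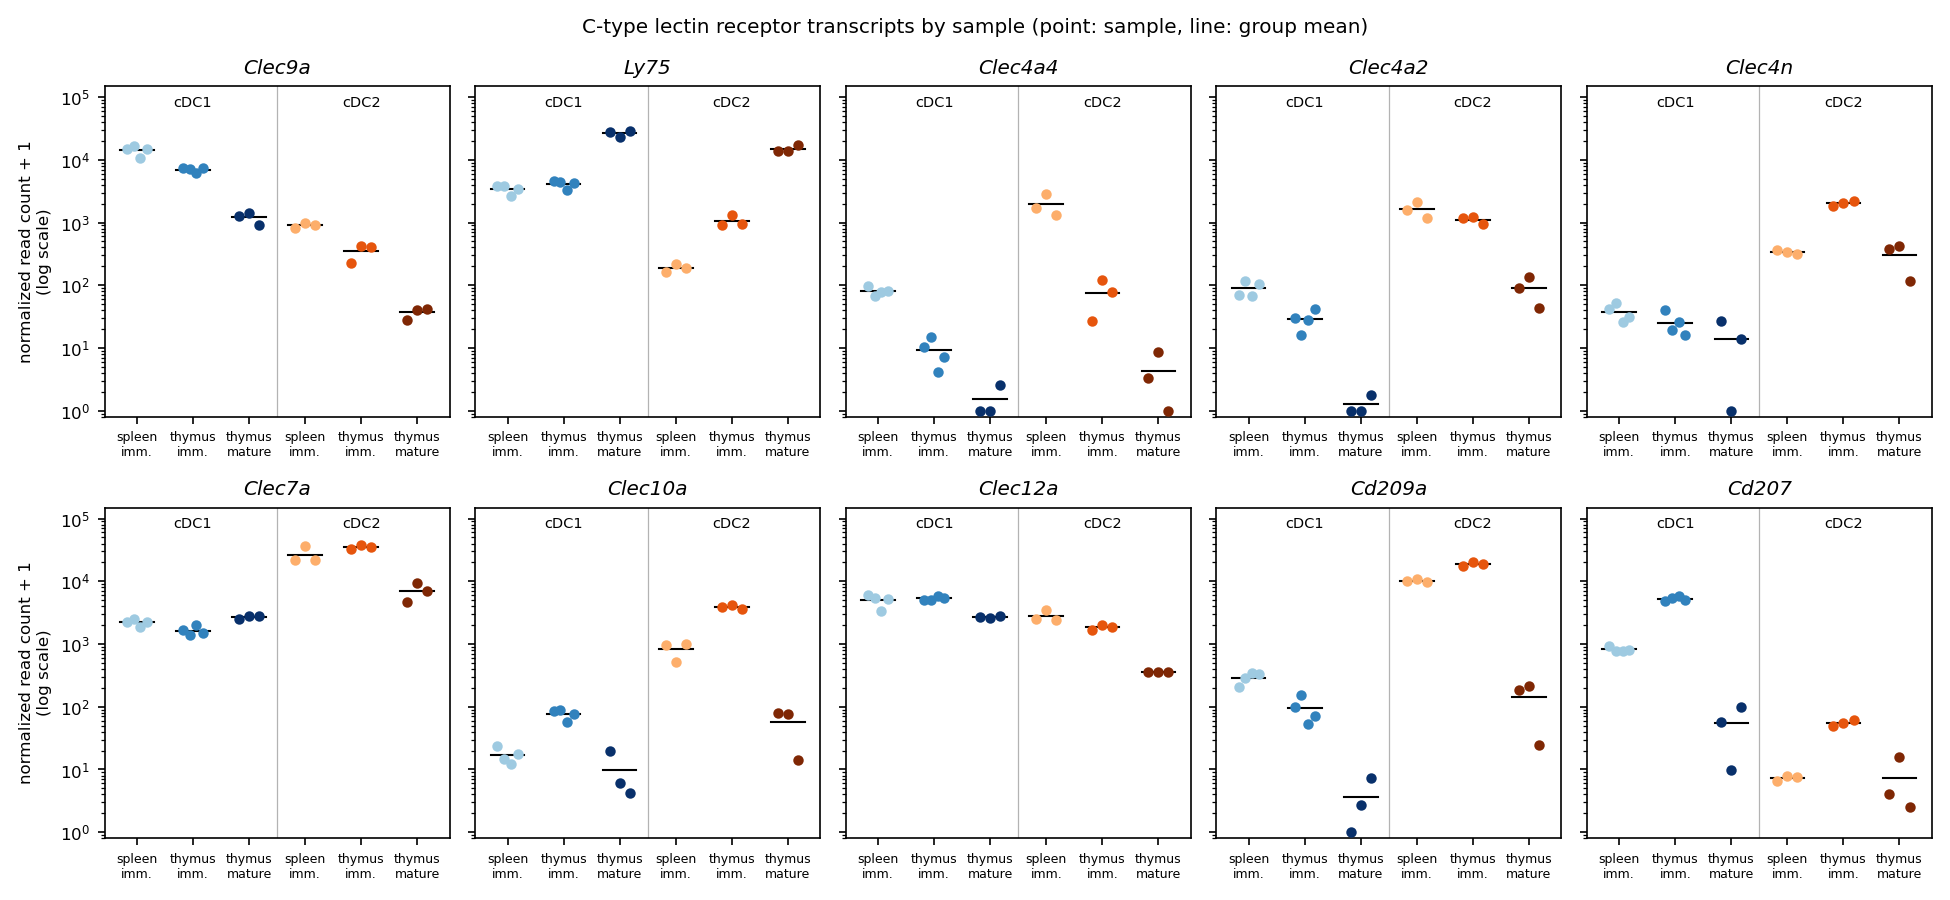
Normalized read count plus 1 of the 10 receptors (log y axis) in each of the 20 samples, 1 panel a gene, with cDC1 groups left and cDC2 groups right of the line; points are samples and bars group means. Ly75 is highest in the mature samples of both subsets, Cd207 peaks in immature thymic cDC1 at 4764 to 5850, and Cd209a in immature thymic cDC2 at 17259 to 19971.

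Sequence upstream of the start site was found in the RefSeq promoter table for 7 of the 10 genes. A window of 250 bases before to 50 after each start was searched on both strands for 4 motif strings. These were TGANTCA (AP-1), GAAA and GAAA with any 2 bases between (interferon response), GGAA and GAAA with any 2 bases between (composite ETS and IRF), and GGG and CC with any 5 bases between (NF-kB). No match of 1 string overlapped a match of another in these genes. TGANTCA was present in 7.93% of 27025 promoters, and among the receptors in Cd207, Clec4a2 and Clec12a. The ETS and IRF string was present in 2.79% of promoters, and in Clec7a and Cd209a. The NF-kB string, in 50.4% of promoters, was present in Ly75, and the interferon string, in 3.49%, in none of the 7. Stretches of Clec7a and Cd209a are shown because they hold the rarest string found, and of Cd207 as an example of an AP-1 match, all on the minus strand of GRCm38.p6 and written 5′ to 3′ with the match in capitals (for Clec7a and Cd209a it lies on the opposite strand). A match describes letters only. Cd207 is from chr6:83677858-83678007, Cd209a from chr8:3748984-3749134 and Clec7a from chr6:129472780-129472929.
Cd207: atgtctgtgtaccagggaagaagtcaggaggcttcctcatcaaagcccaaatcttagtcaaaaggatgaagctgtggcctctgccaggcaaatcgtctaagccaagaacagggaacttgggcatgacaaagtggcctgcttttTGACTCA
Cd209a: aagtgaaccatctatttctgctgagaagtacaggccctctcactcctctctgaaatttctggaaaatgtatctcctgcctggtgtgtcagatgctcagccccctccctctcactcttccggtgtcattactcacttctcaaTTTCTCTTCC
Clec7a: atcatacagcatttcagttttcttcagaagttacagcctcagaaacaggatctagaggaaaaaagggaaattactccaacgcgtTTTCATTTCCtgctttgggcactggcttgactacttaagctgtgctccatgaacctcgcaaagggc

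Per kb of exon, the receptor with the highest mean differed between the groups. Clec9a led in splenic cDC1, with 58% of the summed level of the 10 receptors, followed by Clec12a with 12.2%. In immature thymic cDC1, Cd207 made up 43.8% and Clec9a 26.8%. Mature thymic cDC1 were led by Ly75, with 66.6%. In splenic cDC2 Clec7a made up 48.1%, Cd209a 30.7% and Clec4a4 12.1%. Immature thymic cDC2 kept Clec7a (46.2%) and Cd209a (40.5%) as leaders, while Clec4a4 made up 0.327%. Mature thymic cDC2 were led by Clec7a (50.4%) and Ly75 (41.2%). The summed mean level per kb was 7449, 7883 and 5748 in splenic, immature thymic and mature thymic cDC1, and 20889.7, 29062 and 5262 in the same cDC2 groups.

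**Figure D2:**
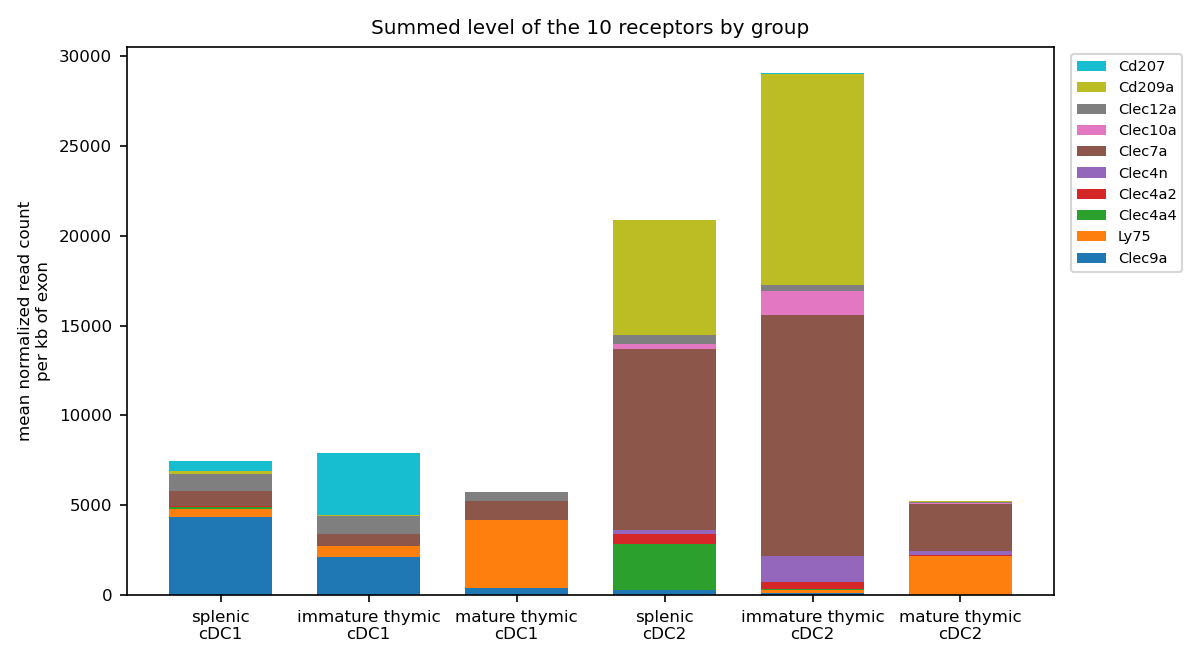
Stacked bars of the mean normalized read count per kb of exon of the 10 receptors in the 6 groups; each colour is 1 receptor. The tallest bars are splenic and immature thymic cDC2, made mainly of Clec7a and Cd209a, and Ly75 takes 66.6% of the bar of mature thymic cDC1.

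The first comparison asked how the receptors differ between the lineages. Clec9a and Cd207 were higher in cDC1, and Clec4a2, Clec4n, Clec7a, Clec10a and Cd209a higher in cDC2, in spleen, in immature thymic cells and in mature thymic cells. Ly75 and Clec12a were called higher in cDC1, and Clec4a4 in cDC2, in part of the comparisons. In spleen 6 receptors were higher and 3 lower in cDC2, where 9.93% and 6.7% of all genes tested were. In immature thymus 6 were higher and 4 lower, beside 11.0% and 5.42% of genes, and in mature thymus 5 and 3, beside 14.6% and 4.36%.

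Cd207 showed the largest cDC1 excess, with log2 fold changes (cDC2 over cDC1) of -6.82 ± 0.58, adjusted p = 1.53e-08, in spleen and -6.58 ± 0.58, adjusted p = 3.27e-08, in immature thymus. In mature cells the Cd207 groups overlapped, at -2.78 ± 0.62, adjusted p = 0.00251, and the adjusted p was 0.155 with only these groups fitted. Clec9a differed by -3.94 ± 0.22, adjusted p = 2.05e-11, in spleen, by -4.36 ± 0.22, adjusted p = 7.49e-12, in immature thymus and by -5.03 ± 0.23, adjusted p = 4.43e-11, in mature thymus. Ly75 was 17.8-fold lower in cDC2 in spleen and 3.97-fold lower in immature thymus. In mature cells its log2 fold change was -0.82 ± 0.19, adjusted p = 0.00298, which is under 2-fold, although the groups did not overlap. Clec12a was lower in cDC2 in immature thymus (-1.55 ± 0.17, adjusted p = 5.41e-07) and mature thymus (-2.90 ± 0.18, adjusted p = 1.72e-09). In spleen its value was -0.84 ± 0.17, adjusted p = 0.000653, and it was -1.03 without splenic cDC1 replicate 3 and -1.02 without splenic cDC2 replicate 2, both past 2-fold.

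Among the receptors higher in cDC2, Cd209a was higher by 7.73 ± 0.61, adjusted p = 7.22e-09, in immature thymus. Its values were 5.16 ± 0.61, adjusted p = 1.68e-06, in spleen and 5.20 ± 0.66, adjusted p = 7.77e-06, in mature thymus. Clec10a was higher by 5.60 in spleen and 5.65 in immature thymus on the log2 scale, and by 2.47 in mature thymus, where the groups overlapped and leaving out mature cDC2 replicate 3 gave 3.29. With only the mature groups fitted the adjusted p of Clec10a was 0.145. Clec4n was higher by 3.23, 6.42 and 5.22 in the same order, and not called in spleen with lane 8 alone (adjusted p = 0.151). Clec7a was higher by 3.54 and 4.45 in immature cells and by 1.32 in mature cells. Clec4a2 was higher by 4.18 in spleen and 5.34 in immature thymus. In mature cells the ratio of Clec4a2 reads rests on 1 read in cDC1 and was 214, with a 95% exact binomial interval of 38.2 to 8490.5 for counting error only. Clec4a4 was higher in cDC2 by 4.55 in spleen and 2.93 in immature thymus. In mature cells it had 14 reads in cDC2 and 2 in cDC1 (adjusted p = 0.26), and the adjusted p was 0.0441 without mature cDC2 replicate 3. The median log2 fold change of the 10 receptors was 3.39 in spleen, 3.69 in immature thymus and 1.239 in mature thymus (0.66 with Clec4a2 and Clec4a4 at a floor of 3 reads per library), beside 0.02, 0.01 and 0.14 for all genes.

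Summed levels of genes listed as markers of other cells differed between the lineages. The sum of 5 monocyte markers was 13323 to 21002 in splenic cDC2 and 2403 to 3867 in splenic cDC1, and that of 9 macrophage markers 6215 to 7512 and 619 to 994. In immature thymic cells the monocyte sum was 23763 to 27385 in cDC2 and 2348 to 3416 in cDC1, and the macrophage sum 7903 to 11642 and 1005 to 1284. Of the 5 monocyte markers, 2 were called higher in splenic cDC2 (median log2 fold change 0.29) and 4 in immature thymic cDC2. Of the 9 macrophage markers 8 were higher in each, and 0 of either list were lower. Beside these, 9.93% and 11.0% of all genes were higher. In these cDC2 groups none of the markers was at 0 in all samples, but the monocyte marker Vcan was below 10 in all splenic cDC2 samples. Whether such cells were present, and their part in the higher Clec7a, Clec4n, Clec10a and Cd209a, was not tested.

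**Figure D3:**
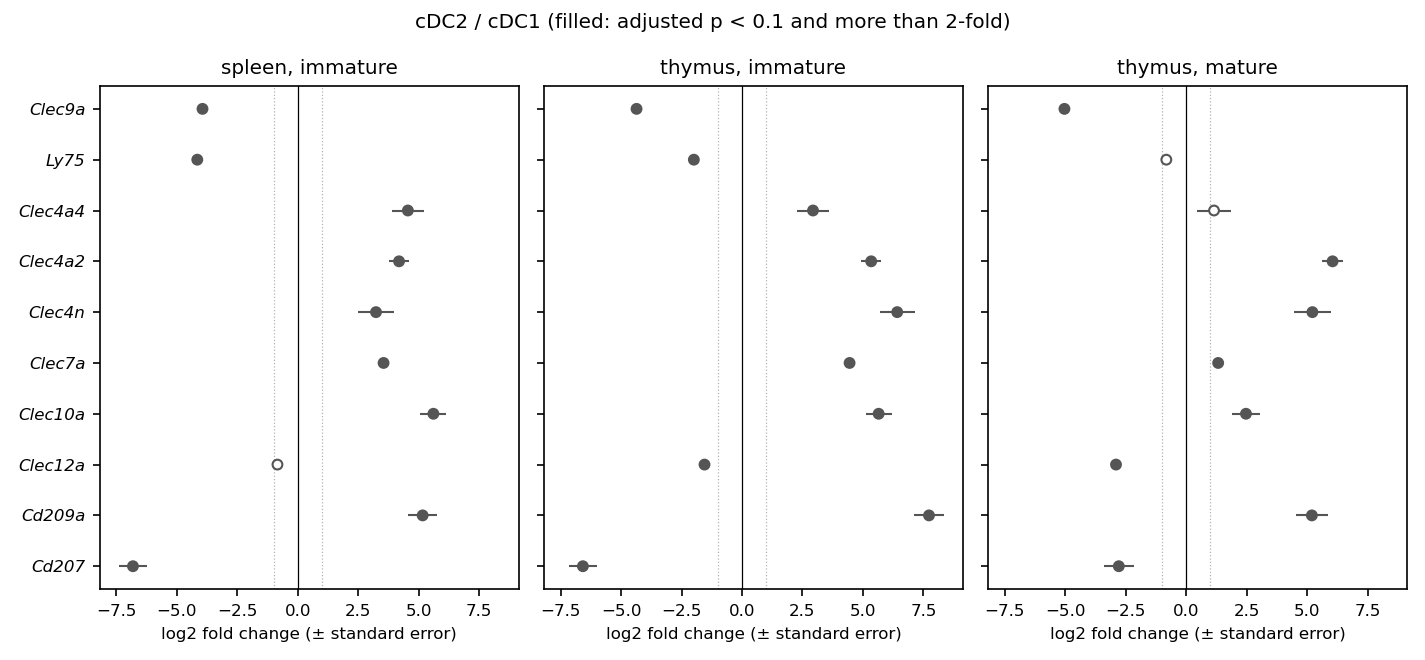
Log2 fold change of cDC2 over cDC1 ± SE for each receptor in spleen, immature thymus and mature thymus, on 1 scale; filled points passed adjusted p below 0.1 and 2-fold (dotted lines). Clec9a, Ly75, Clec12a and Cd207 lie left of 0 and the other 6 right of 0 in all 3 panels, with open points for Clec12a at -0.84 in spleen and for Ly75 at -0.82 and Clec4a4 at 1.15 in mature cells.

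The comparison of mature with immature thymic cells asked how the receptors change with maturation, and most were lower and Ly75 higher in mature cells. Ly75 rose 6.40-fold in cDC1 and 14.4-fold in cDC2. In cDC1, 7 of the 10 receptors fell and 1 rose, where 24.5% of all genes tested fell and 21.3% rose. In cDC2, 9 fell and 1 rose, where 17.0% of genes fell and 18.6% rose. The median log2 fold change of the receptors was -2.56 in cDC1 (-2.14 with Clec4a2 and Clec4a4 at the floor) and -3.27 in cDC2, beside -0.04 and 0.04 for all genes.

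Ly75 had log2 fold changes of 2.68 ± 0.17, adjusted p = 5.38e-11, in cDC1 and 3.85 ± 0.19, adjusted p = 2.49e-12, in cDC2. Cd207 fell in cDC1, with a log2 fold change of -7.12 ± 0.58, adjusted p = 1.57e-09, and in cDC2, where it was low throughout, with -3.33 ± 0.62, adjusted p = 0.000158. Cd209a fell in cDC2, with -7.54 ± 0.66, adjusted p = 9.53e-09, and in cDC1, with -5.01 ± 0.61, adjusted p = 5.87e-07. Clec10a fell in cDC2, with -6.44 ± 0.57, adjusted p = 1.22e-08, and in cDC1, with -3.26 ± 0.53, adjusted p = 2.36e-05. The cDC1 receptor Clec9a fell in both subsets, with log2 fold changes of -2.55 and -3.22. Clec7a fell in cDC2 (-2.40 ± 0.22, adjusted p = 2.25e-08), while in cDC1 its log2 fold change was 0.73 ± 0.21, adjusted p = 0.00495, which is under 2-fold with no overlap between the groups. Clec12a fell in cDC2 (-2.35 ± 0.18, adjusted p = 1.49e-09). In cDC1 its log2 fold change was -0.998 ± 0.17, adjusted p = 3.31e-05, just inside 2-fold, and it lay between -1.02 and -1.03 and was called without immature replicate 1, immature replicate 2 or mature replicate 3.

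Clec4a4, Clec4a2 and Clec4n fell in both subsets, at low levels in cDC1, where the Clec4n call rested on single samples. Clec4a2 fell in cDC2, with a log2 fold change of -3.78 ± 0.43, adjusted p = 4.44e-07. In cDC1 it went from 110 reads over 4 samples to 1 read over 3, a ratio of 64.9 with an exact interval of 11.4 to 2588. Clec4a4 fell in cDC2, with a log2 fold change of -4.36 ± 0.70, adjusted p = 3.26e-05. In cDC1 it went from 36 reads to 2, a ratio of 10.6 with an interval of 2.74 to 91.1, and with a pseudocount of 8 the log2 fold change was -0.88 and not called. Clec4n fell in cDC2, with a log2 fold change of -2.93 ± 0.78, adjusted p = 0.00402. In cDC1 the Clec4n groups overlapped (-1.73 ± 0.73, adjusted p = 0.048), and the log2 fold change was -0.31 (adjusted p = 0.599) without mature replicate 2, in which it was listed at 0. It was -1.48 (adjusted p = 0.118) without immature replicate 1, and -0.92 with DESeq2 and -0.95 with edgeR on recovered reads, none of them called.

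Mature thymic cDC2 replicate 3 was lowest of its group for Cd209a, Clec10a, Clec4n, Clec4a2, Clec4a4 and Cd207, and not for Clec12a, Clec9a, Ly75 or Clec7a. Its sum of macrophage markers was 5744 against 18068 and 19477, and of monocyte markers 965 against 4931 and 5068. Without this sample all 10 receptors were still called in cDC2, with log2 fold changes of -6.53 for Cd209a, -5.63 for Clec10a, -3.55 for Clec4a4, -2.33 for Clec4n and -2.78 for Cd207. Mature cells came from lane 8 alone, and within that lane all 8 called receptors in cDC1 and all 10 in cDC2 kept their direction, at most 0.25 and 0.62 from the value over both lanes. The sum of 7 T cell markers was 1170 to 2065 in mature and 140 to 218 in immature thymic cDC1, and 679 to 1071 and 163 to 255 in cDC2. The monocyte sum was 95.3 to 248 in mature and 2348 to 3416 in immature cDC1, and 965 to 5068 and 23763 to 27385 in cDC2. The macrophage sum was 5861 to 8535 and 1005 to 1284 in cDC1, and 5744 to 19477 and 7903 to 11642 in cDC2. Of the 9 macrophage markers, 2 rose and 4 fell in cDC1, beside 21.3% and 24.5% of all genes. In cDC2 1 rose and 2 fell, beside 18.6% and 17.0%. Whether such cells were present, and their part in these changes, was not tested.

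The change with maturation differed between the subsets for 6 receptors, where 13.6% of all genes tested differed. Ly75 rose more in cDC2 (1.17 ± 0.25, adjusted p = 0.0042). Clec7a (-3.12 ± 0.30, adjusted p = 9.63e-07), Clec10a (-3.18 ± 0.78, adjusted p = 0.00974) and Clec12a (-1.35 ± 0.25, adjusted p = 0.00094) had a lower log2 fold change in cDC2. Cd207 had a more negative one in cDC1 (3.79 ± 0.85, adjusted p = 0.00514). Cd209a differed by -2.53 ± 0.90, adjusted p = 0.0699, and by -1.52 (adjusted p = 0.159) without mature cDC2 replicate 3. It was -2.23 with DESeq2 and -2.33 with edgeR on recovered reads, neither called. Cd209a also lost the call when any of immature cDC1 replicates 3 and 4, mature cDC1 replicates 2 and 3 or the 3 immature cDC2 replicates was left out, with values from -2.59 to -1.81. For Clec9a, Clec4a4, Clec4a2 and Clec4n no difference passed the test, with values of -0.67 for Clec9a, -1.78 for Clec4a4, 0.71 for Clec4a2 and -1.20 for Clec4n (adjusted p = 0.176, 0.246, 0.48 and 0.517). Clec4a4 passed it without mature cDC2 replicate 2 (-2.53) and Clec4n without mature cDC1 replicate 2 (-2.62) and with DESeq2 (-1.81). With a pseudocount of 8 both were called, at -1.83 for Clec4a4 and -2.08 for Clec4n. The Clec4a2 difference, which rests on 1 read in mature cDC1, was called in opposite directions with a pseudocount of 0.1 (3.19, adjusted p = 0.0263) and of 8 (-1.58, adjusted p = 0.0293).

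**Figure D4:**
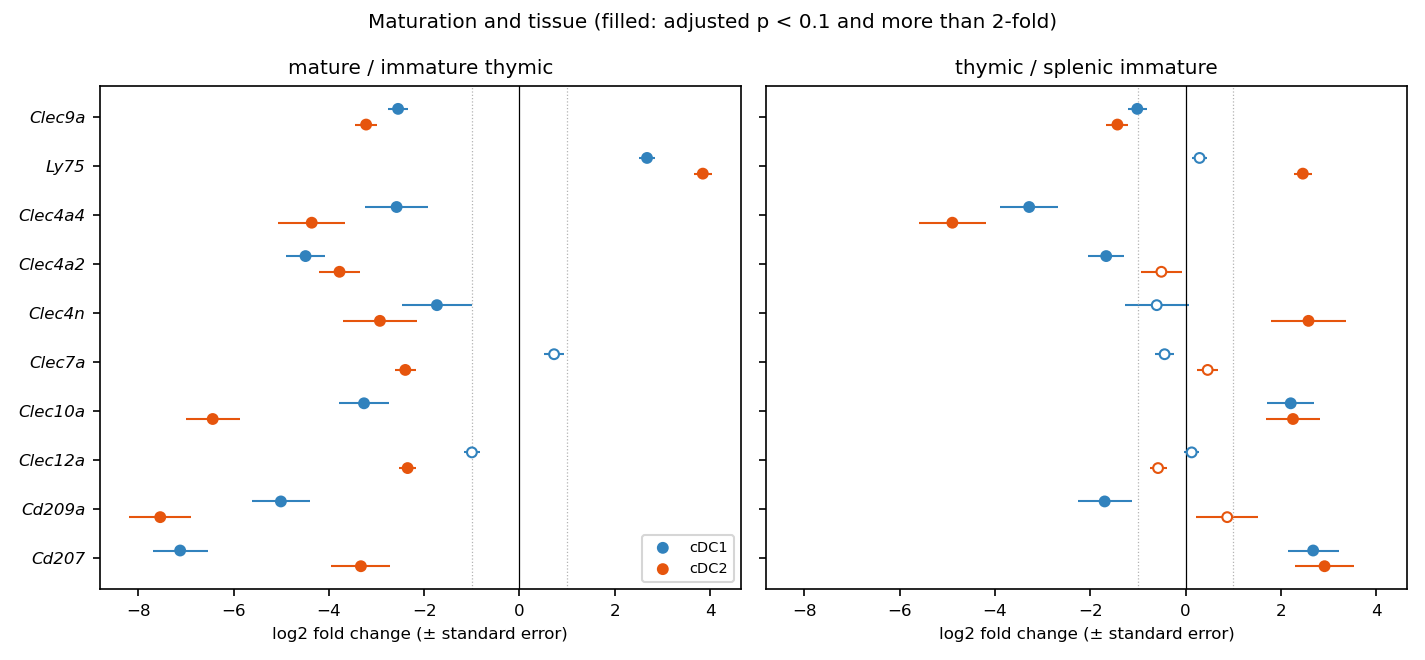
Log2 fold change ± SE of each receptor for mature over immature thymic cells (left) and thymic over splenic immature cells (right), cDC1 in blue and cDC2 in orange; filled points passed adjusted p below 0.1 and 2-fold. On the left Ly75 lies at 2.68 and 3.85 and every called point of the other receptors lies below 0; on the right Cd207 and Clec10a lie above 2 and Clec4a4 below -3 in both subsets.

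The comparison of thymic with splenic immature cells asked how the receptors depend on the tissue. Cd207 and Clec10a were higher, and Clec9a and Clec4a4 lower, in the thymus in both cDC1 and cDC2. In cDC1, 2 receptors were higher and 4 lower, where 4.26% and 4.52% of genes tested were. In cDC2, 4 were higher and 2 lower, where 8.3% and 5.87% of genes were. The median log2 fold change of the receptors was -0.52 in cDC1 and 0.67 in cDC2, beside 0.00 and 0.02 for all genes.

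Cd207 was 6.39-fold higher in thymic cDC1 (2.68 ± 0.54, adjusted p = 0.00143) and 7.55-fold in thymic cDC2 (2.92 ± 0.62, adjusted p = 0.00182), there from 6.29 ± 0.718 to 54.1 ± 6.37. Clec10a was 4.61-fold higher in thymic cDC1 (2.21 ± 0.49, adjusted p = 0.00376) and 4.77-fold in thymic cDC2 (2.25 ± 0.57, adjusted p = 0.0071). Clec4a4 was lower in both, with a log2 fold change of -3.28 ± 0.61, adjusted p = 0.000682, in cDC1 and -4.90 ± 0.70, adjusted p = 3.43e-05, in cDC2. Its cDC2 difference was -6.38 within lane 5 and -3.79 within lane 8. Clec9a was lower in both, with -1.01 ± 0.20, adjusted p = 0.00119, in cDC1 and -1.43 ± 0.23, adjusted p = 0.000122, in cDC2. With lane 8 alone, which leaves fewer samples, Clec10a (adjusted p = 0.102 in cDC1 and 0.286 in cDC2) and Cd207 in cDC2 (0.125) were not called. The cDC1 value of Clec9a lies at the 2-fold limit and was between -0.93 and -0.99 without splenic replicate 1, 2 or 4 or thymic replicate 3.

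In cDC2 alone, Ly75 (2.46 ± 0.19, adjusted p = 9.49e-09) and Clec4n (2.58 ± 0.78, adjusted p = 0.0227) were called higher in the thymus, Clec4n not with a pseudocount of 0.1 (adjusted p = 0.171) or lane 8 alone (0.257). In cDC1 the values were 0.29 ± 0.16, adjusted p = 0.324, for Ly75 and -0.61 ± 0.68, adjusted p = 0.705, for Clec4n. The tissue effect differed between the subsets for these 2 receptors, where 4.98% of all genes tested differed, with 2.17 ± 0.25, adjusted p = 1.09e-05, for Ly75 and 3.19 ± 1.03, adjusted p = 0.0959, for Clec4n. The Clec4n difference lost its call without any 1 of 12 samples, with log2 values between 3.00 and 3.26. Cd209a, at 2.57 ± 0.87, adjusted p = 0.113, was not called, but was with DESeq2 (2.48, adjusted p = 0.0304) and edgeR (2.46, adjusted p = 0.0187) on recovered reads. Cd209a was also called with a pseudocount of 8, all libraries separate, only the compared groups fitted or thymic cDC1 replicate 2 left out, at 2.49 to 2.84. Clec4a4, at -1.61 ± 0.93, adjusted p = 0.494, was called with a pseudocount of 8 (-2.24). Clec7a, at 0.90 ± 0.29, adjusted p = 0.0955, was under 2-fold, and passed it without thymic cDC1 replicate 3 (1.00) or splenic cDC2 replicate 2 (1.15).

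Clec4a2 (-1.67 ± 0.37, adjusted p = 0.00391) and Cd209a (-1.70 ± 0.57, adjusted p = 0.0555) were called lower in thymic cDC1, and neither was with lane 8 alone (adjusted p = 0.16 and 0.277). The Cd209a call was lost without splenic replicate 2, 3 or 4 or thymic replicate 3 or 4, at -1.69 to -1.47. In cDC2 their values were -0.51 ± 0.43, adjusted p = 0.461, for Clec4a2 and 0.87 ± 0.66, adjusted p = 0.397, for Cd209a. The Cd209a groups did not overlap, with every thymic cDC2 sample above every splenic cDC2 sample. Clec7a and Clec12a were not called in either subset, at -0.44 and 0.13 in cDC1 and 0.46 and -0.58 in cDC2, where the Clec12a groups did not overlap. Beside these cDC2 differences, the monocyte sum was 23763 to 27385 in thymic and 13323 to 21002 in splenic cDC2, the macrophage sum 7903 to 11642 and 6215 to 7512, and the sum of 6 plasmacytoid markers 10624 to 12184 and 3285 to 3966. Of the macrophage markers 3 of 9 were called higher in thymic cDC2 and 0 lower, and Adgre1, which encodes F4/80, was at 1874 ± 144 in thymic and 4534 ± 368 in splenic cDC2 (adjusted p = 0.115). In cDC1 the sum of 5 B cell markers was 106 to 139 in thymus and 566 to 984 in spleen, and that of the T cell markers 139.9 to 218 and 48.4 to 83.8. Whether such cells were present, and their part in these differences, was not tested.

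The other C-type lectin receptors, a list of 34 genes of which 27 could be tested, were described in the same comparisons. With maturation 5 rose and 12 fell in cDC1, where 21.3% and 24.5% of all genes did, and 4 rose and 22 fell in cDC2, beside 18.6% and 17.0%. Their median log2 fold changes were -0.97 (-0.51 with 7 genes at the floor) and -3.36. Mrc2, an endocytic collagen receptor of the family of Ly75, went from 4.98 ± 4.48 to 730.0 ± 179 in cDC2 and from 1.02 ± 0.778 to 286 ± 81.6 in cDC1. Clec2i rose from 162 ± 26.6 to 6056 ± 1244 in cDC1. Clec4b2 fell from 385 ± 70.2 to 0 in all 3 mature cDC1 samples, at least 88.1-fold for a floor of 3 reads per library. Cd209c fell from 514 ± 89.7 to 2.16 ± 2.09 in mature cDC2.

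Between tissues, 5 of the 27 were higher and 7 lower in thymic cDC1, beside 4.26% and 4.52% of all genes, and 10 higher and 2 lower in thymic cDC2, beside 8.3% and 5.87%. Mgl2, the near copy of Clec10a, was at 17792 ± 799.6 in immature thymic and 329.9 ± 25.8 in splenic cDC2, with a log2 fold change of 5.75 ± 0.83. Cd209e and Cd209d, relatives of Cd209a, were higher by 7.75 ± 0.55 and 5.26 ± 0.82, while Cd209a itself did not pass the test, although its groups did not overlap. Of the 27, cDC2 held more than cDC1 for 19 in spleen, 21 in immature thymus and 13 in mature thymus, and less for 3, 2 and 1, where 9.93%, 11.0% and 14.6% of all genes were higher and 6.7%, 5.42% and 4.36% lower. Clec4a3 and Clec4a1, neighbours of Clec4a2 in name and family, were at 1973 ± 466 and 3644 ± 853 in splenic cDC2 against 12.2 ± 8.62 and 33.6 ± 15.6 in splenic cDC1. Clec4b2 went the other way, at 438 ± 103 in splenic cDC1 and 1.22 ± 2.11 in splenic cDC2.

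**Figure D5:**
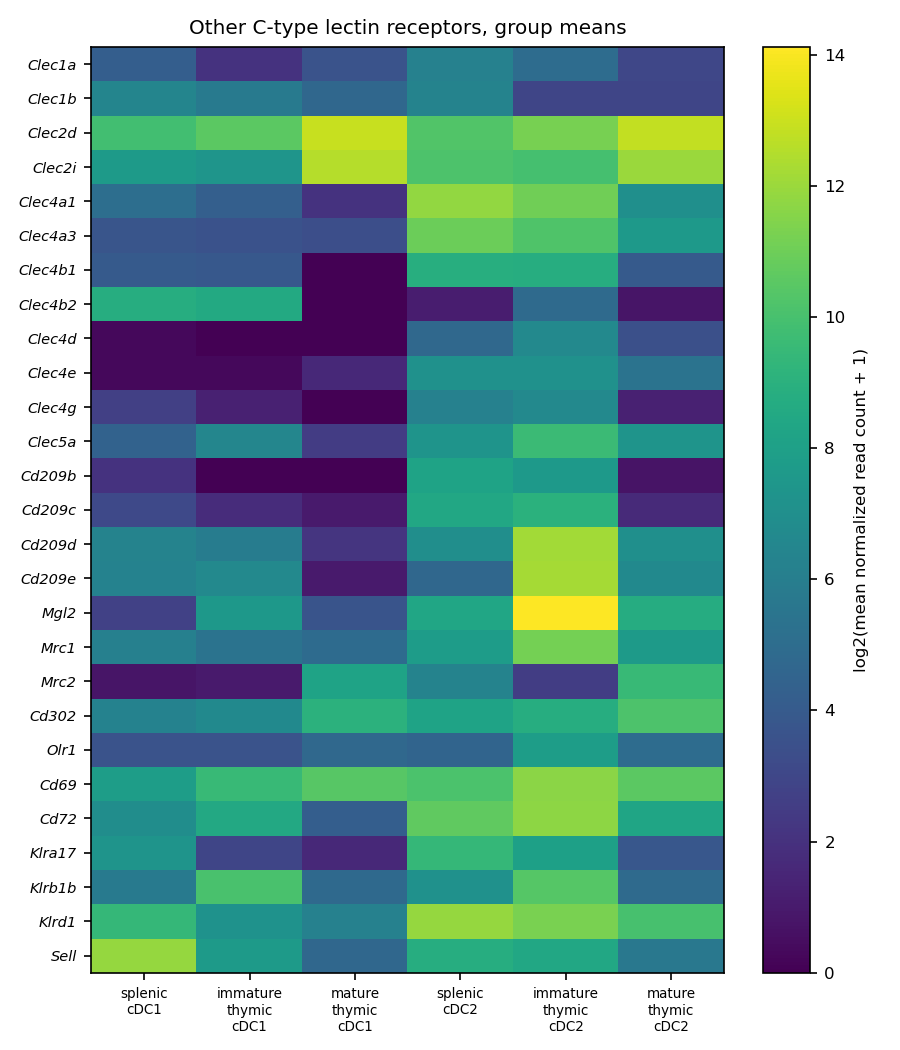
Group means of the 27 other C-type lectin receptors that could be tested, as log2(mean normalized read count + 1) in colour, 1 line a gene and 1 column a group. Mgl2, Cd209d and Cd209e are bright in immature thymic cDC2, Clec2d and Clec2i in both mature groups, and Clec4b2 in the immature cDC1 groups.

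All 21 genes listed for adaptors and signalling of these receptors could be tested. In spleen 8 were higher and 0 lower in cDC2, beside 9.93% and 6.7% of all genes, in immature thymus 6 and 0, beside 11.0% and 5.42%, and in mature thymus 3 and 1, beside 14.6% and 4.36%. Fcer1g, the Fc receptor gamma chain with which Clec4n signals, was at 6585 ± 1066 in splenic and 4349 ± 751 in immature thymic cDC2, against 686 ± 199 and 251 ± 66.2 in cDC1. With maturation 3 rose and 7 fell in cDC1, beside 21.3% and 24.5% of all genes, and 2 rose and 7 fell in cDC2, beside 18.6% and 17.0%. Src, a kinase, rose from 129.8 ± 37.7 to 8739.6 ± 1912 in cDC1 and from 200.2 ± 19.9 to 2922 ± 414 in cDC2. Inpp5d, the lipid phosphatase SHIP, fell from 19117 ± 2163 to 2794 ± 109 in cDC1. Between tissues 1 was higher and 2 lower in each subset, beside 4.26% and 4.52% of all genes in cDC1 and 8.3% and 5.87% in cDC2, and Syk, the kinase downstream of Clec7a, was at 5331 ± 526 in thymic and 14658 ± 4510.0 in splenic cDC2.

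The genes whose levels followed each receptor most closely were ranked by Pearson's r over the 20 samples, which share the groups, and r is given as a description. St3gal5 (0.983) was closest to Clec9a, Id2 (0.986) to Ly75 and Acvrl1 (0.969) to Cd207, for which Xcr1 stood at 0.962. Clec12a was closest to St3gal5 as well (0.954), and its r with Clec9a was 0.947. Cd300lg (0.973) and then Clec4a2 (0.966) were closest to Cd209a, and Sulf2 (0.973) was to Clec4a2. Slc44a2 (0.969) was closest to Clec4a4, Cst7 (0.943) to Clec4n, Fam46a (0.966) to Clec7a and Tlr2 (0.963) to Clec10a. Within the family the most negative r was that of Ly75 with Clec4a4 (-0.92).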

How the data were processed

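RNA was sequenced from 21 libraries of sorted cDCs in 6 groups, taken from the labels. After trimming with Cutadapt, the authors mapped the read pairs to mm10 using STAR, counted reads per gene using HTSeq-count and normalized the counts using DESeq2. The processing notes of the submitters give STAR version 2.6 and DESeq2 version 1.24.0. The deposited values are a signal, the read count divided by 1 size factor per library. Division by the value of 1 read gave whole reads for 100% of values (within 0.001 reads), 14266867 to 40119669 per library, and intervals from them cover counting error only.

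The log2 of value + 1 was fitted with limma (version 3.58.1, R 4.3.3) with 1 mean for each of the 6 groups and an intensity trend, for the 14970 genes that reached 10 in 3 or more of the 20 samples, with Benjamini-Hochberg adjustment. The fit was also run on simulated counts. These had the same dispersion for every gene, independent samples and no changed genes of low level. The simulation therefore does not cover linked samples or receptors with few reads. Alternatives were DESeq2 (version 1.42.0) and edgeR (version 4.0.16) on the recovered reads, TMM rescaling, pseudocounts, filters, fold thresholds, lane, the opening number of the labels read as a pool, the groups fitted and the omission of each sample. An unblocked fit of the libraries used for the pool block was added after seeing the data.

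Named were the 10 receptors, the sorting genes, marker genes and, from the lists of other receptors and signalling genes, per comparison up to 3 called genes at each end of the fold changes, and up to 3 genes of mean at least 100 most like each receptor. Clec12a against Clec9a and Ly75 against Clec4a4 were named after their correlations were seen. The members and lists were chosen with earlier results of these data known. Positions, exon lengths and shared, overlapping windows of 100 bases came from GENCODE M21 on GRCm38, the build of mm10, and promoters from RefSeq (GRCm38.p6).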

Additional observations from a re-analysis of the deposited data

Results flagged for a closer look

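Differences between the subsets in the effect of maturation or tissue passed the test for these receptors. The maturation effect in cDC2 minus that in cDC1, on the log2 scale, was 1.17 for Ly75, -3.12 for Clec7a, -3.18 for Clec10a, -1.35 for Clec12a, -2.53 for Cd209a and 3.79 for Cd207. The tissue effect in cDC2 minus that in cDC1 was 2.17 for Ly75 and 3.19 for Clec4n. The calls of Cd209a for maturation and of Clec4n for tissue were lost in several of the alternative fits given in the Results. The rule for a sample far from the others needs 4 samples, so it covered each receptor in splenic and immature thymic cDC1 only. In these 20 sets of values there was 0 such sample. The other groups, mature thymic cDC2 with its replicate 3 among them, could not be examined by this rule.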

How the results depend on the processing

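Of 1806 log2 fold changes of the receptors under the alternatives, 1708 kept their direction and their side of the threshold, 62 lost the call, 24 gained it and 12 changed sign. With DESeq2, edgeR, TMM rescaling, lane as a covariate and all libraries kept separate, the number called stayed within 1.5 times in all 9 comparisons. Requiring 10 in all samples left 4 receptors to test, and the number called was 2 and 4 for maturation in cDC1 and cDC2, 1 and 2 for tissue, 3, 4 and 3 for cDC2 against cDC1 in spleen, immature and mature thymus, 3 for the difference in maturation effects and 1 for that in tissue effects. Lane 8 alone gave 2 and 3 for tissue in cDC1 and cDC2 and 1 for the difference in tissue effects, with fewer samples. A log2 fold change above 2 gave 3 for tissue in cDC1. The difference in tissue effects gave 1 with a pseudocount of 0.1, no filter or 1 sample per pool, 4 with a pseudocount of 8, and between 1 and 2 with each sample left out. For the difference in tissue effects the cause was not tested.

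The tissue effect of Clec10a in cDC2 minus cDC1 was near 0 and negative with DESeq2 (-0.050), edgeR (-0.037), a pseudocount of 0.1 (-0.017), lane 8 alone (-0.41) and 1 sample per pool (-0.12), and ranged from -0.26 to 0.22 as each sample was left out, below 0 in 4 fits. With a pseudocount of 8 the difference in maturation effects of Clec4a2 was -1.58 (3.19 with a pseudocount of 0.1, both called) and that in tissue effects of Cd207 -0.55, and without splenic cDC1 replicate 3 the tissue effect of Clec12a in cDC1 was -0.055, and it ranged up to 0.23 as others were left out.

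The opening number of the label is read as a pool number, though the labels do not say so. Pairs of an immature cDC1 and an immature cDC2 sample with the same number did not all deviate together. Their r ran from -0.08 to 0.46 in spleen and from -0.15 to 0.28 in immature thymus. For pairs with different numbers r ran from -0.49 to 0.24 in spleen and from -0.22 to 0.26 in immature thymus. Mature samples also share numbers and were not examined in this way. Replicate 3 of mature thymic cDC1 and of mature thymic cDC2 carry the same number. Mature thymic cDC1 replicate 1 shares its number with immature thymic cDC1 replicates 3 and 4 and immature thymic cDC2 replicate 3. The main comparisons were not paired. With the opening number as a block, 9 receptors were called in spleen and 10 in immature thymus for cDC2 against cDC1, and unblocked fits of the same libraries called 9 and 10. In mature cDC1, depth limits Clec4a2 and Clec4a4, which had 1 and 2 reads in all.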
